A study of Homo sapiens with 2 samples.

Results

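RNA polymerases I, II and III and their dedicated initiation factors were followed in the established human glioblastoma line U251 by the genes that encode them. The members were chosen by name, as probe sets whose single annotated symbol begins with POLR1, POLR2 or POLR3 followed by a letter, or is that of a subunit of SL1, TFIIIA, TFIIIB or TFIIIC, of RRN3 or of MAF1. This gave 47 of the 18417 genes named on the array, from 50 probe sets, and the brighter probe set was used for the 3 genes that had 2. Of these, 13 genes belong to Pol I, 13 to Pol II and 20 to Pol III. The remaining symbol, POLR1HASP, names an antisense RNA gene that encodes no subunit, and its intensity of 128.4 with G-TPP and 123.7 with DMSO lay under the background level. Background means the 95th percentile of the olfactory receptor genes of an array, 178.5 with G-TPP and 175.9 with DMSO. The samples were cells given 5 µM G-TPP or the solvent DMSO for 6 h, both in high-glucose DMEM, with 1 array each. G-TPP is a Gamitrinib, an Hsp90 inhibitor of the geldanamycin type carried into mitochondria by triphenylphosphonium, and the study asked how transcripts respond when mitochondrial Hsp90 chaperones are targeted. With 1 array per group no difference has a replicate check, so values are given without errors or p-values and hold for these 2 arrays. As in any bulk sample, fewer cells of a type and less RNA per cell cannot be told apart.

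Eukaryotic cells divide transcription among these enzymes. Pol I makes the large ribosomal RNA precursor, Pol II makes messenger RNAs and many small nuclear RNAs, and Pol III makes transfer RNAs, the smallest ribosomal RNA and short RNAs such as U6 and 7SK. Each enzyme has its own large catalytic subunits, while a set of small subunits is built into all of them, and POLR1C and POLR1D are built into both Pol I and Pol III. The subunits are put together in the cytosol with the help of cytosolic Hsp90 and the R2TP cochaperone complex before import into the nucleus. Growing cells keep Pol I and Pol III active to supply ribosomes, and both are known to be curbed under stress.

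The starts of several of these genes are shown first, either for the size of their differences or because they carry a motif that other members share. No window is shown for BRF2, the member with the widest gap. Each is a RefSeq window of build GRCh38.p14 that runs from 250 bases before the gene start to 50 after it, read 5′ to 3′ on the gene's strand. Capitals mark CACGTG, the E-box bound by MYC and its relatives. POLR2A, the lowest member, lies at chr17:7484116-7484415 on the plus strand. POLR1C, the lowest of the Pol I subunits, lies at chr6:43516839-43517138 on the plus strand. GTF3C3, which was over 2-fold higher, lies at chr2:196799634-196799933 on the minus strand. POLR1G at chr19:45406394-45406693 and POLR3C at chr1:145823950-145824249, both on the plus strand, each hold an E-box although POLR1G was lower and POLR3C higher with G-TPP.
POLR2A: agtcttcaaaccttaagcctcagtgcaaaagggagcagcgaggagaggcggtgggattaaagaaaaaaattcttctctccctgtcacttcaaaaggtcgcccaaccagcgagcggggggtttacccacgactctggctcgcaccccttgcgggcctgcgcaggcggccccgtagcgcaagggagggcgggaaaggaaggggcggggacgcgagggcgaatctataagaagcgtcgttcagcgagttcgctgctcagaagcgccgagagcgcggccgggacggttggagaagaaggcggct
POLR1C: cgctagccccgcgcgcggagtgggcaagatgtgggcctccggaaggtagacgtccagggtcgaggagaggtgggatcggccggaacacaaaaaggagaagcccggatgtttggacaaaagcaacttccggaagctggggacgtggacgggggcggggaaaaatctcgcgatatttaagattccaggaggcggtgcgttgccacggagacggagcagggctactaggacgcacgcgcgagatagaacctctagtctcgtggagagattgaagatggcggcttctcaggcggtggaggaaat
GTF3C3: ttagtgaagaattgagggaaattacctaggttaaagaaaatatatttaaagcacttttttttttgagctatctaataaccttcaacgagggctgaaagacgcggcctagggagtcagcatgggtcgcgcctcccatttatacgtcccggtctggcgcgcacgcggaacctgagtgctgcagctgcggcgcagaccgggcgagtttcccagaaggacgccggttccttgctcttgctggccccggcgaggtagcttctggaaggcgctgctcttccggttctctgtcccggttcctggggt
POLR1G: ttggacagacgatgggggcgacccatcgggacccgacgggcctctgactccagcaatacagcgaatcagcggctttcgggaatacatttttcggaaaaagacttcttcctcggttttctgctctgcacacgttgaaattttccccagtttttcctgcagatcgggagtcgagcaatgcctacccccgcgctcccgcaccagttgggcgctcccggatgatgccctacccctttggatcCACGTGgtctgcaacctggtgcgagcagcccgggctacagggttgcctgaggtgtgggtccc
POLR3C: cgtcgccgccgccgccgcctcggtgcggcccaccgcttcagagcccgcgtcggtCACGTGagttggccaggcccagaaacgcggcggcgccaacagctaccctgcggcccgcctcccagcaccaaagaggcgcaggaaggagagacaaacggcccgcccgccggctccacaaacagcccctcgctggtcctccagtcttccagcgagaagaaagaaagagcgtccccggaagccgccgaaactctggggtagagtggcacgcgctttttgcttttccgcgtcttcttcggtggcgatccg

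Most members differed little, and a few differed by 1.5-fold or more in either direction. At least 2-fold higher with G-TPP were BRF2 and GTF3C3, both of Pol III, and at least 2-fold lower was POLR2A, the catalytic subunit of Pol II. At 1.5-fold TAF1A of Pol I and POLR2M of Pol II were also higher, and POLR1C and POLR3K were also lower. These counts refer to the 45 members kept after a filter that asks an intensity of at least 239.2 in the brighter array, the median of that value over all probe sets. POLR3GL and POLR1HASP did not reach it. The 2 members at least 2-fold higher stand beside 2.8% of the 11091 kept genes, and the 1 member at least 2-fold lower beside 0.55% of them. At 1.5-fold, 4 of 45 members were higher, against 7.37% of kept genes, and 3 of 45 were lower, against 3.23% of kept genes. The shares of members past these sizes were 8.89% higher and 6.67% lower. As a scale of array noise, 361 genes of olfactory receptors, a family little expressed in other tissues, had log2 differences with a standard deviation of 0.19 and a range of -0.74 to 0.80. Of the 45 kept members 4 lay outside that range, BRF2, GTF3C3, POLR2A and POLR1C, beside 5.78% of all kept genes. TAF1A, POLR2M and POLR3K lay inside it. Olfactory receptors are dimmer than most members, so their spread need not hold here, and it leaves out differences between cultures.

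**Figure D1:**
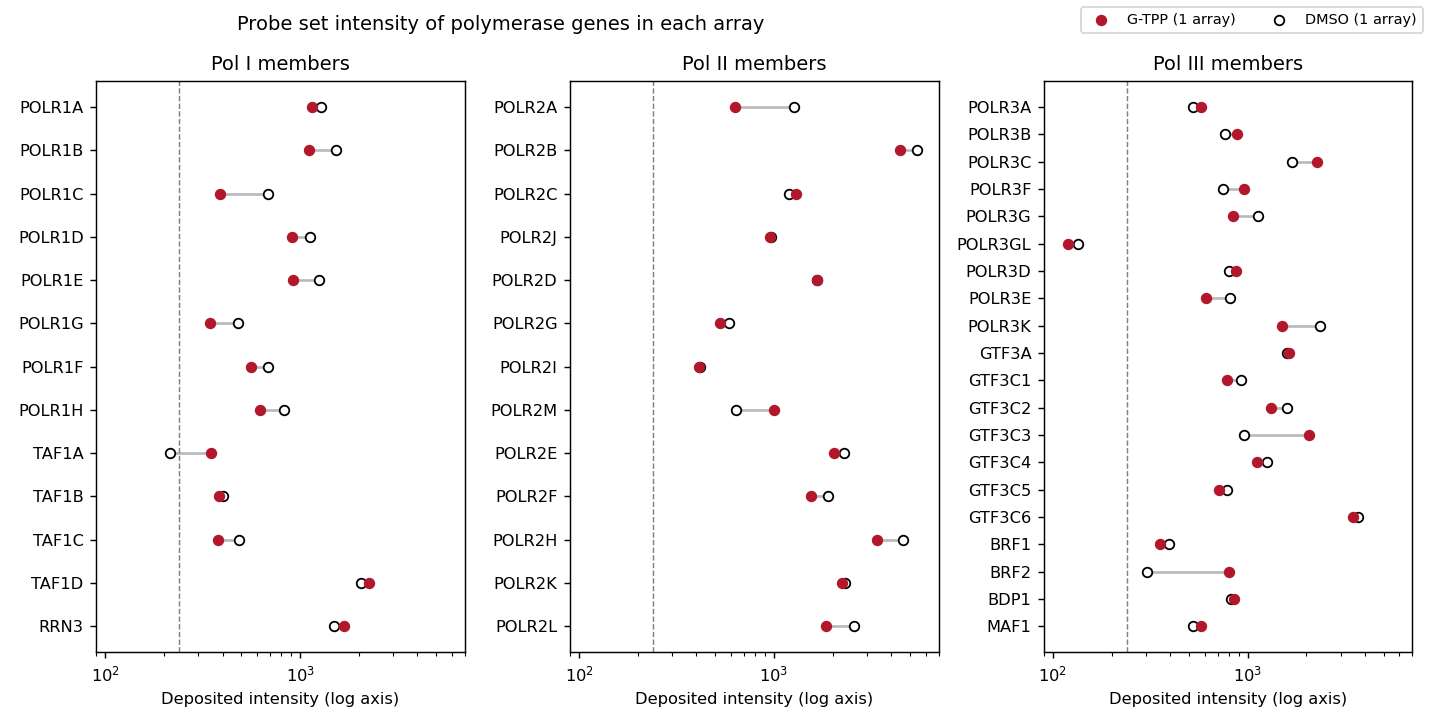
Deposited probe set intensity (log axis) of 46 polymerase genes in the G-TPP array (filled) and the DMSO array (open), by polymerase, with the brightness filter of 239.2 as a dashed line. The widest gaps are those of BRF2, GTF3C3 and POLR2A, and the G-TPP point lies left of the DMSO point for all 8 Pol I subunits from POLR1A to POLR1H.

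Pol I members had the lowest median and Pol III members the highest, with each shared subunit filed under 1 polymerase. The 5 subunits shared by all 3 enzymes were counted with Pol II, and POLR1C and POLR1D with Pol I. The median log2 difference was -0.30 over the 13 Pol I members, with the Pol II members at -0.14 over 13 genes and the Pol III members at 0.03 over 19 kept genes. All kept genes had a median of -0.04. Below 0 were 10 of 13 Pol I members, 10 of 13 Pol II members and 9 of 19 Pol III members, beside 55.9% of all kept genes. After centring on the median of all genes 8 of 13 Pol II members were below 0, with the counts for Pol I and Pol III as before. The sign of the Pol III median is not settled, since it was -0.03 with no brightness filter and with the 75th percentile filter, and -0.01 after quantile normalization. It also depends on the filing: with POLR1C and POLR1D added, the Pol III median was -0.09 over 21 kept genes. Without the 5 subunits shared by all enzymes, the Pol II median was -0.02 over 8 genes. With both changes Pol III lay below Pol II. No test of these group differences can be made from 2 arrays.

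**Figure D2:**
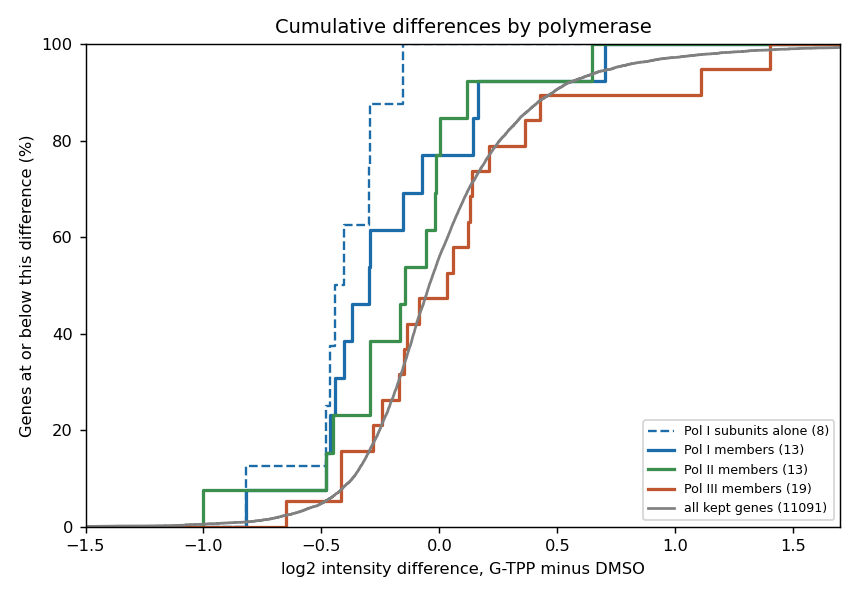
Cumulative share of genes (percent) at or below a given log2 intensity difference, G-TPP minus DMSO, for kept members by polymerase, for the 8 Pol I subunits alone and for all 11091 kept genes (grey). The Pol I subunit curve reaches its top left of 0, at -0.15, and the Pol III curve lies near the grey curve over most of the range.

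Genes for the subunits of Pol I were all lower with G-TPP. Their median log2 difference was -0.42 over 8 genes, which is 1.34-fold lower, with a range of -0.82 to -0.15. All 8 were below 0, beside 55.9% of all kept genes. They stayed below 0 after lowess centring, after centring on the median of all genes and after quantile normalization. POLR1A, the largest subunit, which holds the active site, had an intensity of 1147 with G-TPP and 1276 with DMSO, 1.11-fold lower. POLR1B, the other large catalytic subunit, had 1115 with G-TPP and 1538 with DMSO, 1.38-fold lower. The catalytic pair was therefore lower for both genes, with the smaller gap for POLR1A.

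POLR1C, which with POLR1D forms the platform on which Pol I and Pol III are assembled, had the widest gap, at 386.3 with G-TPP and 681.9 with DMSO, 1.77-fold lower. In the order of all kept genes it was at rank 111 from the lowest. Its partner POLR1D had 910.2 with G-TPP and 1119 with DMSO, 1.23-fold lower. Mutations of these 2 genes and of TCOF1 cause Treacher Collins syndrome, a disorder of facial development. POLR1E and POLR1G form a heterodimer related to TFIIF that helps initiation and elongation, and were 1.36-fold and 1.40-fold lower. POLR1F of the stalk, which binds RRN3, was 1.23-fold lower. POLR1H, the subunit that lets Pol I cleave its transcript after a stall, was lower by its brighter probe set, at -0.41 on the log2 scale. Its other probe set had 173.4 with G-TPP, under background, and 254.0 with DMSO, so no fold is taken from it.

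The initiation factors of Pol I did not share that direction. RRN3, also known as TIF-IA, couples Pol I to growth signals and had 1677 with G-TPP and 1495 with DMSO, 1.12-fold higher. A further 3 probe sets are annotated to RRN3 together with its pseudogenes and had log2 differences between 0.16 and 0.30, so signals of RRN3 and of these copies cannot be told apart there. SL1, which recruits Pol I to the ribosomal DNA promoter, consists of TBP and the TAF1 subunits of this list. TAF1A had 348.2 with G-TPP and 214.1 with DMSO, 1.63-fold higher, with its DMSO value under the brightness filter but above background. TAF1C was 1.29-fold lower, and TAF1B, the TFIIB-like subunit, was 1.05-fold lower. TAF1D had 2266 with G-TPP and 2055 with DMSO, 1.1-fold higher. Another 6 probe sets carry TAF1D beside a small nucleolar RNA, and 5 of them were below 0, with log2 differences from -0.70 to -0.08. The other one had 259.8 with G-TPP and 140.5 with DMSO, the DMSO value being under background. None of these is credited to TAF1D, since each has several symbols.

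**Figure D3:**
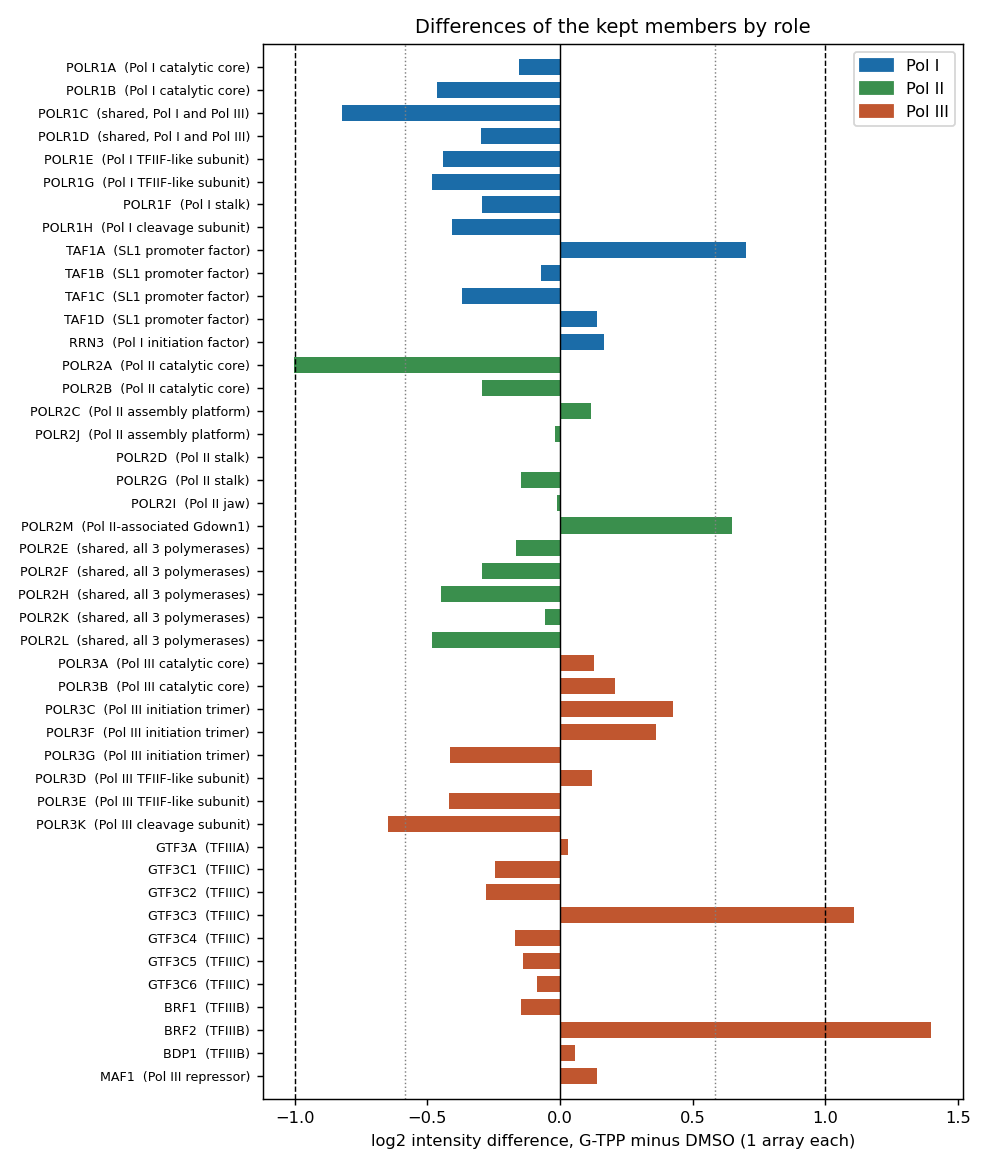
Difference in log2 intensity, G-TPP minus DMSO, of the 45 kept members, in order of role and coloured by polymerase; dashed lines mark 2-fold and dotted lines 1.5-fold. BRF2 and GTF3C3 pass 2-fold on the high side, POLR2A reaches it on the low side, and no Pol I subunit lies above 0.

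In Pol II the gap was widest in the subunit that carries the catalytic site. POLR2A, whose C-terminal repeats are phosphorylated through the transcription cycle, had 631.6 with G-TPP and 1264 with DMSO, 2.0-fold lower. It was at rank 61 from the lowest among all kept genes. The log2 difference of -1.0 lies at the 2-fold limit and passed to the other side of it, at -0.96, with centring on the median of all genes. POLR2B, the other large subunit, had 4439 with G-TPP and 5447 with DMSO, 1.23-fold lower. Most of the other subunits of Pol II alone lay close to 0. POLR2C and POLR2J, which form the assembly platform, had log2 differences of 0.12 and -0.02. POLR2D and POLR2G of the stalk had 0.00 and -0.14, and POLR2I of the jaw had -0.01. Near-identical copies of POLR2J exist, and 4 probe sets annotated to several of them had log2 differences between -0.11 and 0.22.

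POLR2M went the other way. It encodes Gdown1, which binds Pol II and makes it dependent on Mediator, and had 996.6 with G-TPP and 636.3 with DMSO, 1.57-fold higher. By its other probe set the log2 difference was 0.61. Over the 8 genes filed under Pol II alone, POLR2M included, the median log2 difference was -0.02, beside -0.04 for all kept genes. Below 0 were 5 of the 8, near the 55.9% of all kept genes.

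The small subunits that all 3 enzymes share were all lower, also after lowess centring, median centring and quantile normalization. POLR2K was lower only narrowly, with a log2 difference of -0.06, and of -0.01 after median centring. POLR2K and POLR2E, at -0.17, lay within 0.19 of 0, the standard deviation of the olfactory receptor genes. POLR2L had 1848 with G-TPP and 2579 with DMSO, 1.40-fold lower, and POLR2H had 3370 with G-TPP and 4603 with DMSO, 1.37-fold lower. POLR2F had 1556 with G-TPP and 1905 with DMSO, 1.22-fold lower. POLR2E had 2026 with G-TPP and 2275 with DMSO, and POLR2K 2225 with G-TPP and 2311 with DMSO, 1.12-fold and 1.04-fold lower. Their median log2 difference was -0.29 over 5 genes. With POLR1C and POLR1D, 7 of 7 subunits shared between polymerases were below 0, beside 55.9% of all kept genes, with a median of -0.30. When shared subunits are counted with each enzyme that contains them, the median is -0.41 over 13 genes for Pol I and -0.29 over 15 kept genes for Pol III. For Pol II it is -0.14 over 13 genes, POLR2M included, so Pol III counted this way lies below Pol II.

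Subunits specific to Pol III were split. POLR3A and POLR3B, the catalytic pair, were slightly higher with G-TPP, unlike their Pol I and Pol II counterparts. POLR3A had 573.0 with G-TPP and 523.7 with DMSO, 1.09-fold higher, and POLR3B had 879.3 with G-TPP and 760.8 with DMSO, 1.16-fold higher. Set side by side, the log2 differences of the largest subunits were -0.15 for POLR1A, -1.0 for POLR2A and 0.13 for POLR3A. Those of their catalytic partners were -0.46 for POLR1B, -0.30 for POLR2B and 0.21 for POLR3B. The values of POLR3A, POLR3B and POLR1A are near 0.19 in size, the standard deviation of the olfactory receptor genes. The contrast in direction is therefore uncertain.

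Pol III alone has a trimer that opens the promoter and contacts TFIIIB. POLR3C had 2269 with G-TPP and 1690 with DMSO, 1.34-fold higher, and POLR3F had 960.2 with G-TPP and 747.6 with DMSO, 1.28-fold higher. The trimer's last seat is taken by either of 2 paralogs. POLR3G, the form typical of stem and tumour cells, had 844.1 with G-TPP and 1126 with DMSO, 1.33-fold lower. POLR3GL, the form typical of differentiated cells, had 120.2 with G-TPP and 134.6 with DMSO, under the background level in both arrays, so no fold is given.

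The remaining Pol III subunits pointed both ways. POLR3D and POLR3E form a TFIIF-like pair used in initiation and termination, and their log2 differences were 0.12 and -0.42. POLR3K, which cleaves stalled transcripts as POLR1H does in Pol I, had 1507 with G-TPP and 2361 with DMSO, 1.57-fold lower. The jaw and cleavage subunits of the enzymes thus had log2 differences of -0.41 for POLR1H, -0.01 for POLR2I and -0.65 for POLR3K.

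Both of the members that were over 2-fold higher were promoter factors of Pol III. They were 2 of the 11 Pol III factors, MAF1 included, beside 2.8% of all kept genes. The median log2 difference of these factors was -0.09. TFIIIB, which places Pol III at its start site, contains TBP, BDP1 and either BRF1 or BRF2. BRF1 serves promoters inside transfer RNA genes, and BRF2 serves promoters upstream of genes such as those of U6 and 7SK. BRF2 had 801.9 with G-TPP and 304.0 with DMSO, 2.64-fold higher, at rank 139 from the highest among all kept genes. BRF1 had 354.1 with G-TPP and 392.5 with DMSO, 1.11-fold lower. BDP1 had 849.2 with G-TPP and 816.2 with DMSO, and both of its probe sets had a log2 difference of 0.06. Within TFIIIB the 2.64-fold gap therefore belonged to BRF2, while BRF1 and BDP1 differed by 1.11-fold or less.

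TFIIIC recognises the promoters inside transfer RNA genes and brings in TFIIIB. Its subunit GTF3C3 had 2073 with G-TPP and 960.5 with DMSO, 2.16-fold higher, at rank 245 from the highest. The other TFIIIC subunits were all slightly lower. GTF3C1, the largest, which contacts the promoter DNA, had 777.9 with G-TPP and 921.0 with DMSO, 1.18-fold lower. GTF3C2 was 1.21-fold, GTF3C4 1.13-fold, GTF3C5 1.1-fold and GTF3C6 1.06-fold lower. TFIIIA, the zinc finger protein encoded by GTF3A that serves the smallest ribosomal RNA gene, had 1631 with G-TPP and 1595 with DMSO, a log2 difference of 0.03 that was -0.01 after quantile normalization. MAF1, which binds and represses Pol III when nutrients are short or cells are stressed, had 578.6 with G-TPP and 525.7 with DMSO, 1.1-fold higher.

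Partner factors of the enzymes were compared next, from lists of textbook members. For Pol I, 5 of 7 other factors were below 0, beside 55.9% of all kept genes. Their median log2 difference was -0.17. None reached 1.5-fold in either direction, beside 7.37% higher and 3.23% lower among all kept genes. UBTF, the architectural factor that covers active ribosomal DNA, had 1281 with G-TPP and 1889 with DMSO, 1.48-fold lower. TCOF1 was 1.16-fold, CAVIN1, a release factor for Pol I transcripts, 1.13-fold and NOLC1 1.12-fold lower. TBP, which takes part in initiation by all 3 enzymes, had 2480 with G-TPP and 2347 with DMSO, a log2 difference of 0.08.

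For general factors of Pol II the median log2 difference was 0.09 over 29 genes. Above 0 were 18 and below 0 were 11, or 37.9%, beside 55.9% of all kept genes below 0. At 1.5-fold 1 was higher and 1 lower, or 3.45% each, beside 7.37% and 3.23% of all kept genes. TAF7, a TFIID subunit that restrains initiation, was 1.78-fold higher, and TAF5, a scaffold of TFIID, was 1.62-fold lower. GTF2E1, the large subunit of TFIIE, had a log2 difference of 0.58, just under the 1.5-fold limit, and GTF2H4 of TFIIH was 1.40-fold lower. Factors of pausing and elongation had a median of 0.00 over 22 genes, with 11 above 0 and 11 below, beside 55.9% of all kept genes below 0. ELL2, an elongation factor of the super elongation complex, had 1391 with G-TPP and 561.2 with DMSO, 2.48-fold higher. CCNT2, a cyclin of the elongation kinase P-TEFb, was 1.59-fold higher, and TCEA1, the cleavage factor TFIIS, was 1.49-fold higher. HEXIM1, which holds P-TEFb inactive on 7SK RNA, had a log2 difference of -0.59, at the 1.5-fold limit.

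For other Pol III factors the median log2 difference was -0.03 over 12 genes. SNAPC1, a subunit of the complex that acts with BRF2 at upstream promoters, had 4478 with G-TPP and 2380 with DMSO, 1.88-fold higher. SNAPC5 was 1.40-fold higher, SNAPC3 had a log2 difference of 0.01, and SNAPC2 and SNAPC4 were 1.34-fold and 1.22-fold lower. NFIX and NFIC, factors with roles well beyond Pol III, were 1.61-fold and 1.37-fold lower. CRCP, a stalk subunit of Pol III named for another function, was 1.06-fold higher. Factors for assembly and import of polymerases had a median of 0.09 over 15 genes. GPN1, a GTPase of Pol II import, was 1.54-fold higher, DNAAF10, a partner of R2TP, was 1.40-fold lower, RPAP2 was 1.26-fold lower and URI1 1.2-fold lower. RUVBL1 and RUVBL2, the ATPases of R2TP, had log2 differences of -0.10 and -0.12, and RPAP3, its Hsp90-binding subunit, had 0.24.

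**Figure D4:**
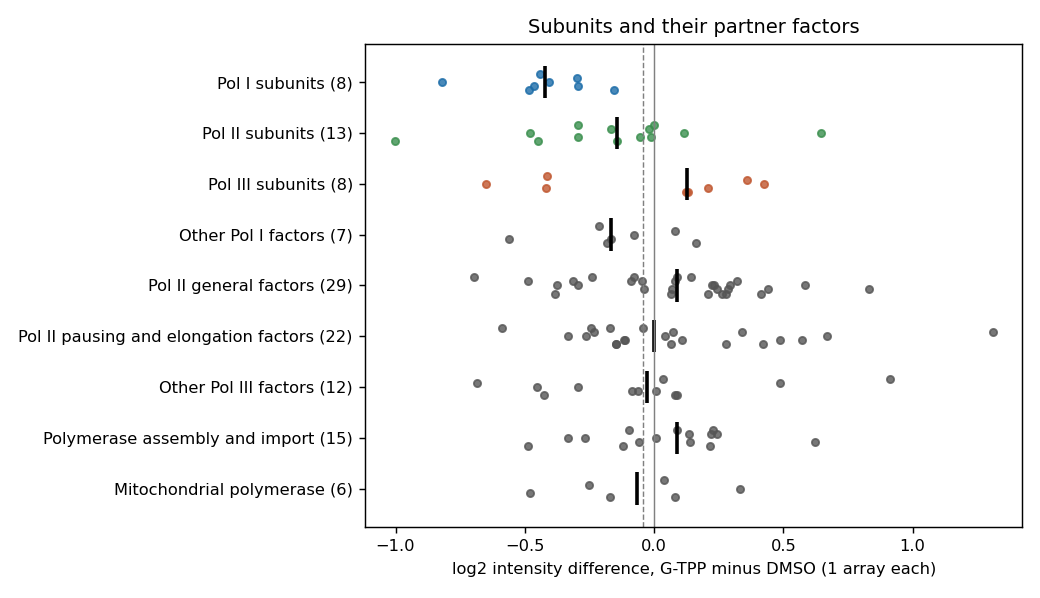
Log2 intensity difference, G-TPP minus DMSO, of each kept gene (points) with the median of its list (black bars) for polymerase subunits and partner factors; the dashed line is the median of all kept genes, -0.04. The Pol I subunits have the lowest median, -0.42, and ELL2 is the point furthest to the right, at 1.31.

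Transcripts made by Pol III were hardly measured. Of 16 such RNAs looked for, 7 had a probe set of their own and 2 passed the brightness filter. RMRP, the RNA of a ribosomal RNA processing enzyme, had 1149 with G-TPP and 1202 with DMSO, a log2 difference of -0.06. RPPH1, the RNA of ribonuclease P, had 386.9 with G-TPP and 412.4 with DMSO, a log2 difference of -0.09. Neither RNA reached a 1.5-fold difference, beside 7.37% higher and 3.23% lower among all kept genes. Both are transcribed from promoters of the kind that BRF2 serves, and any link to the level of BRF2 was not tested. These levels are of stored RNA and do not measure the rate of transcription.

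The promoters were also searched for short motifs on both strands. Windows were found for 37 members, and the first listed window of each was used. The E-box CACGTG occurred in 7 of the 37, or 18.9%, and in 7.26% of 35116 windows of the whole table, which includes genes of every kind. It was present in POLR1G, POLR3A, POLR3C, POLR3E, GTF3C2, GTF3C4 and GTF3C6, whose log2 differences ran from -0.48 for POLR1G to 0.42 for POLR3C. None of those 7 reached 1.5-fold, beside 7.37% higher and 3.23% lower among all kept genes, so the count says little about the E-box. The letters GAANNTTC, 1 form of a minimal heat shock element, occurred in 4 of 37 windows, those of POLR1A, POLR3F, TAF1B and GTF3A, and in 6.77% of the table. TGATGNAA, the composite site of C/EBP and ATF factors, occurred in 0 of 37 windows and in 3.62% of the table. ATTGCATCA, present in 0.236% of the table, holds a match to TGATGNAA on its other strand, so its 0 of 37 follows from that result. The ER stress element, CCAAT and CCACG with 9 bases between them, occurred in 0 of 37, beside 0.0769% of the table. No searched motif was found in the windows of POLR2A, POLR1C, POLR3K, POLR2M, TAF1A and GTF3C3, and BRF2 was not searched.

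The arrays were alike in level, as RMA makes them. The median intensity of all 33297 probe sets was 215.5 with G-TPP and 224.8 with DMSO. Among 9 markers of the line, VIM and CD44 had 6494 and 7614 with G-TPP, against 7146 and 8013 with DMSO, GFAP had 231.5 with G-TPP and 245.2 with DMSO, and S100B lay under the background level. The summed intensity of these markers was 18107 with G-TPP and 23773 with DMSO. SOX2 and PDGFRA were 2.72-fold and 3.25-fold lower, SOX9 and NES 1.98-fold and 1.42-fold lower, and FABP7 1.16-fold higher. Below 0 were 7 of 8 kept markers of the line, beside 55.9% of all kept genes. At 1.5-fold 3 of these 8 were lower, beside 3.23% of all kept genes. Of 9 markers of foreign cells 6 lay under background in both arrays, PTPRC, PECAM1, EPCAM, KRT5, HBB and ALB. The remaining 3 lay above it in both arrays: the myeloid markers CD68 and TYROBP had 515.5 and 220.4 with G-TPP, against 583.7 and 305.7 with DMSO, and the endothelial marker CDH5 had 304.8 with G-TPP and 319.5 with DMSO. The list summed to 1499 with G-TPP and 1700 with DMSO. Any part of these marker levels in the polymerase values was not tested.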

How the data were processed

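From each culture 6 µg of total RNA went into biotin-labelled cRNA for an Affymetrix array, per the labels. The deposited values are intensities on a linear scale, 1 for each probe set in each sample. RMA in Expression Console 1.1.2 made them, per the submitters' processing notes. RMA evens out the intensity distributions of arrays, so a change in total RNA per cell is not visible. Which arrays were run together was not given in the sources. With 1 array per group, their number limits the precision.

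Groups follow the agent in the labels. Of 33297 probe sets, 19460 had 1 gene symbol in the platform annotation, and the other probe sets, 1754 with several and 12083 not listed, were left out. Deposited intensities were turned to log2 without a pseudocount, and G-TPP minus DMSO was taken for the brightest probe set of each gene. Genes were kept if the brighter array reached 239.2, and were counted by size, at 2-fold and 1.5-fold, with no test. Intensities in both arrays are given for members at 1.5-fold or more and for a fixed core of large, shared and regulatory subunits. Up to 4 kept genes per partner list were named by size of difference, and further ones were added after their values were seen. Members and lists were chosen with earlier results of these data known. Counting was tested on simulated data. Alternatives were no filter, other filters, lowess and median centring, quantile normalization, other probe set choices, a pseudocount of 16, other fold limits and current symbols. The tools were numpy 2.4.6, statsmodels 0.14.6, pandas 2.3.3 and matplotlib 3.10.9, under Python 3.11.15.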

Additional observations from a re-analysis of the deposited data

How the results depend on the processing

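The median log2 difference of all members stayed between -0.16 and -0.10 over the main setting and its 10 alternatives, that of Pol I members between -0.35 and -0.25, and that of Pol II members between -0.17 and -0.10. That of Pol III members ran from -0.03 to 0.08 and so changed sign. The count of members at least 2-fold lower was 1, and it was 0 with median centring and with log2 of the intensity plus 16, because POLR2A lies at the limit. With a 1.5-fold limit 4 members were higher and 3 lower, and with a 3-fold limit 0 were higher and 0 lower; these counts follow from the limit alone. The 7 members at 1.5-fold kept their direction under every alternative that gave them a value, and TAF1A was left out by the 75th percentile filter. With 1 array per group no replicate could be left out. No paired analysis was possible because each group has 1 array. Background left in dim probe sets can pull folds towards 1, and noise can move them either way. Which of these applies to TAF1A was not tested.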

Other observations

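Several members share their promoter region with a gene that starts on the opposite strand within 1000 bases. The level of that neighbour's transcript can be set beside the member's, and some of these pairs are given here. ZBTB4, a zinc finger repressor gene whose start lies 117 bases before that of POLR2A, had 334.9 with G-TPP and 368.3 with DMSO, a log2 difference of -0.14 beside -1.0 for POLR2A. YIPF3, a Golgi protein gene that starts 163 bases before POLR1C, had 1700 with G-TPP and 1743 with DMSO, a log2 difference of -0.04 beside -0.82. SNRNP25, which encodes a protein of the minor spliceosome and starts 220 bases before POLR3K, had -0.30 beside -0.65. RNF115, a ubiquitin ligase gene that starts 105 bases before POLR3C, had 0.39 beside 0.42 for POLR3C. The log2 difference of the member minus that of its neighbour was thus -0.86 for POLR2A and -0.78 for POLR1C, and 0.03 for POLR3C. Other pairs went otherwise: LNX2, 214 bases before POLR1D, had 0.33 beside -0.30, and PTCD3, 349 bases before POLR1A, had -0.39 beside -0.15. All pairs named were chosen after their values were seen, and nothing about their regulation was tested.

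The polymerase of mitochondria is built from nuclear genes outside the families above. POLRMT, the mitochondrial RNA polymerase, had 529.4 with G-TPP and 738.5 with DMSO, 1.39-fold lower, and TFAM, which bends and packs mitochondrial DNA, was 1.19-fold lower. TEFM, its elongation factor, was 1.26-fold higher, TFB2M, its initiation factor, 1.13-fold lower, and TFB1M had a log2 difference of 0.04. The 6 genes of that list had a median log2 difference of -0.07. None reached 1.5-fold, beside 7.37% higher and 3.23% lower among all kept genes.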
